A study of Mus musculus with 4 samples.

Results

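The pentose phosphate pathway and its cytosolic NADPH-supplying neighbours were followed through 9 genes in cultured mouse granulosa cells (GCs), the steroid-producing cells around the oocyte of an ovarian follicle. The genes were taken by name as textbook enzymes of the pathway (G6pdx, Pgls, Pgd, Rpia, Rpe, Tkt and Taldo1) or as cytosolic NADPH sources outside it (Me1 and Idh1). These genes and the further lists below were chosen with earlier results of these data known. Counts and medians of the 9 and of the lists are thus descriptive and no independent test. All 9 were found among 25239 listed genes, and all 9 were among the 12054 genes tested. Transcripts were measured by RNA-seq in 2 libraries of GCs treated with HDACi 4b, an inhibitor of histone deacetylase 1 and 3, and in 2 control libraries without it. The cells of both groups were described as wild type, on the C57BL/6 background (C57BL/6J in the methods), from mice of postnatal day 24. Neither the dose nor the length of the HDACi 4b treatment is given in the labels of these libraries. Some notes attached to the samples describe tamoxifen-injected mice with a floxed Hdac3 gene, and frozen ovaries instead of cultured cells. The record thus conflicts on genotype and material, and the titles were followed here. For cultured GCs in general, the methods state a dose and an overnight treatment, without naming these libraries. Those GCs came from mice primed with the gonadotropin PMSG. Whether both libraries of a group stem from independent cultures or mice is not labelled, and the p-values thus reflect a library-to-library spread that may be technical.

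The pathway has an oxidative and a non-oxidative branch. In the oxidative branch glucose 6-phosphate is oxidised to ribulose 5-phosphate and NADP+ is reduced to NADPH, the electron donor of sterol and fatty acid synthesis, of steroid hydroxylation and of glutathione and thioredoxin recycling. The non-oxidative branch interconverts the pentose phosphates and returns their carbon to glycolysis. In steroid-producing cells such as GCs, cholesterol synthesis and steroidogenesis both draw on NADPH.

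Values are FPKM (fragments per kilobase, scaled to library depth). The length behind them matched the union of a gene's annotated exons, 2171 bases for Taldo1 and 7355 for Tkt. Levels, sums and shares of different genes are thus per annotated length and depend on it. Taldo1 stood above Tkt in FPKM on fewer reads (8890 against 20090 in HDACi 4b library 1). Differences are HDACi 4b minus control on the log2(FPKM + 1) scale with their standard error (SE), from limma with Benjamini-Hochberg adjustment over the 12054 genes that averaged 1 FPKM or more. A gene was called at an adjusted p under 0.05. Under this rule 60.5% of all tested genes were called, 22.4% higher and 38.1% lower in HDACi 4b, and the values of the 2 groups did not overlap for 83.1%. With 2 libraries against 2, an exact two-sided permutation test of a single value cannot give a p below 0.333.

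Of the 9 enzymes, 6 were higher in HDACi 4b-treated GCs (G6pdx, Pgd, Tkt, Taldo1, Me1 and Idh1), 1 was lower (Rpia) and 2 were not called (Pgls and Rpe). The groups did not overlap for 8 of the 9, Rpe being the exception. The median difference of the 9 was 1.35 on the log2 scale, beside -0.15 for all tested genes. Each of the 6 was at least 2-fold higher by mean FPKM and had a difference of at least 1 on the log2 scale, and 7.54% of tested genes were both called higher and of that size. The same 7 genes were called, in the same directions, in all 10 processing alternatives.

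**Figure D1:**
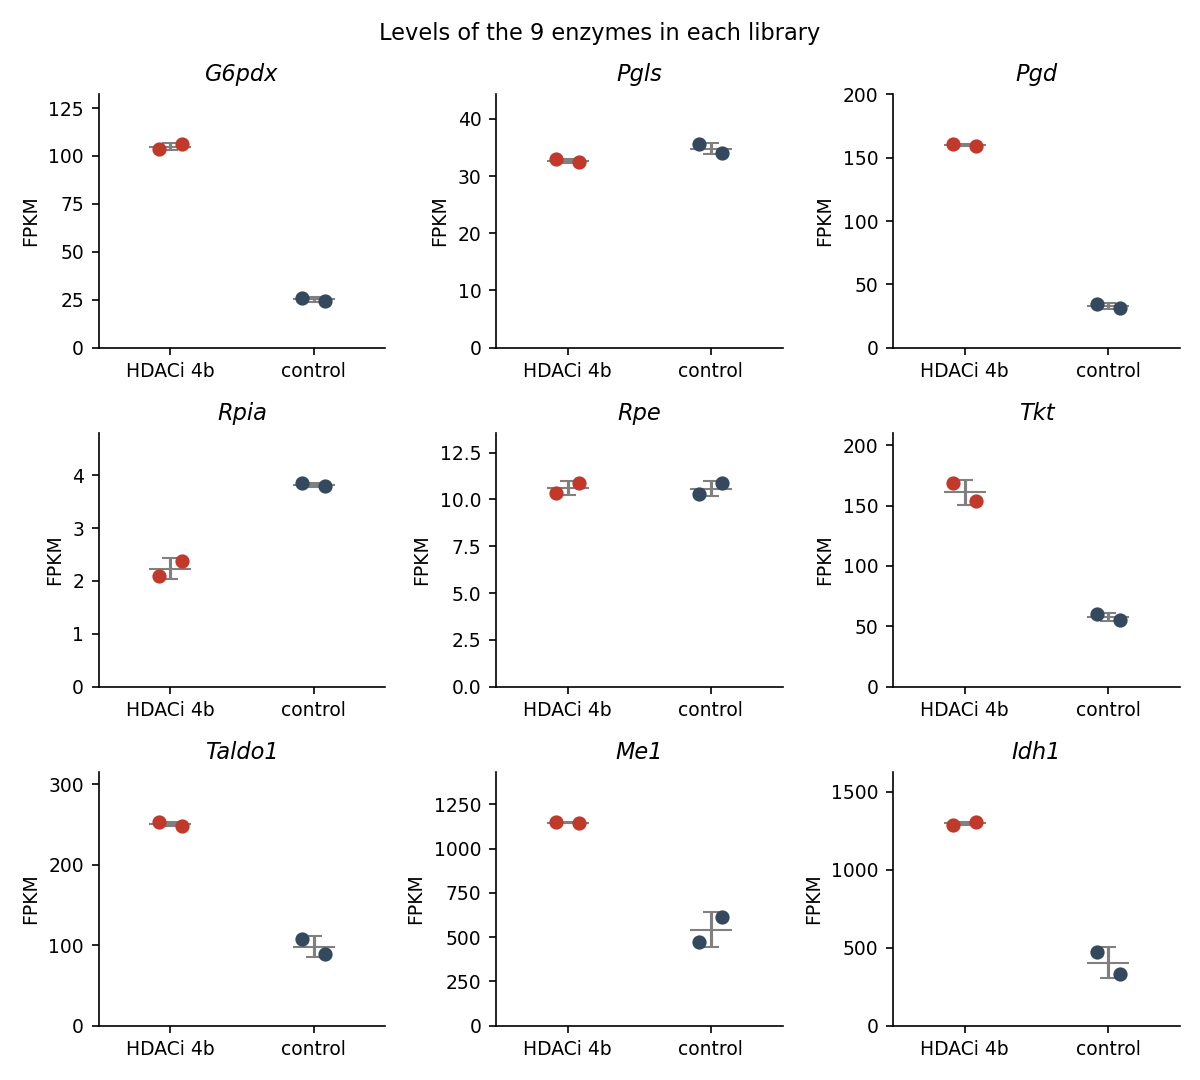
FPKM of each of the 9 enzymes in the 2 HDACi 4b libraries (red, left) and the 2 control libraries (dark blue, right), each panel on its own linear axis from 0. Points are libraries, the grey dash is the group mean and the bar 1 SD; the red points lie above the blue ones for 6 enzymes, below them for Rpia and, narrowly, for Pgls, and overlap with them for Rpe.

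Sequences before the start site are shown for 3 enzymes that rose (Pgd, Tkt and Taldo1) and for Pgls, which was not called, so that the windows of members that moved can be read beside one that was not called. They are RefSeq sequences on GRCm38.p6, on the gene's strand and up to 250 bases before the first listed start, without bases inside exons of coding transcripts. For G6pdx, whose window lies in an annotated first exon, only 30 bases around a single match are given. Capitals mark GC boxes (GGGCGG on either strand), except in G6pdx, where they mark the core of the antioxidant response element (TGACNNNGC, here on the opposite strand).
G6pdx, chrX:74428919-74428948, minus strand: gaggcgggtcaGCTCAGTCAaagcacacgc
Pgls, chr8:71591934-71592175, plus strand: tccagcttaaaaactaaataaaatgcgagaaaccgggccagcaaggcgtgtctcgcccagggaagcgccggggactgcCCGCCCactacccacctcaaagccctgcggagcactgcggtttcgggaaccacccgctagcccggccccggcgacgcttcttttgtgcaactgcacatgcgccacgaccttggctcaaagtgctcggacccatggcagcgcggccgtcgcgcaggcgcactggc
Pgd, chr4:149166708-149166955, minus strand: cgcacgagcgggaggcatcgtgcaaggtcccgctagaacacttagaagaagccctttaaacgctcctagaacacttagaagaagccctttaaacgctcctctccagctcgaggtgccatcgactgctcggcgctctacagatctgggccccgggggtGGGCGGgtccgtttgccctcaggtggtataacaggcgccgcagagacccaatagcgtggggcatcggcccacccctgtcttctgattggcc
Tkt, chr14:30548881-30549130, plus strand: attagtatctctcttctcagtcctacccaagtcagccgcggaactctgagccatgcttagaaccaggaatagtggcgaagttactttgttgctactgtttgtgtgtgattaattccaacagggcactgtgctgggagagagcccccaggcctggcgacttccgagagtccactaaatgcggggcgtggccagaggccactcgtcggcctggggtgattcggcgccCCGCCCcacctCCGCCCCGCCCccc
Taldo1, chr7:141391910-141392159, plus strand: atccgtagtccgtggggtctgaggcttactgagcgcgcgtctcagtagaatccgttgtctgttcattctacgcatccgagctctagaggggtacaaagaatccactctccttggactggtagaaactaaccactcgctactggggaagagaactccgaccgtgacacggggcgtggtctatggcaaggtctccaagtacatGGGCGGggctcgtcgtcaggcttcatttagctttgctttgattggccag

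A set of 6 motifs was searched on both strands in the 250 bases before the start of 27025 RefSeq promoters, and all 9 members were matched. The GC box, the binding sequence of SP1-type factors, was in all 9 windows, Pgls and Rpe included, and in 32.9% of all promoters. The 9 windows were 54.4% (Taldo1) to 72.0% (Me1) G and C, and the promoters beside them were not matched for this content. In Tkt its 3 matches stood within 25 bases of the start, and 2 of them shared a base. The antioxidant response element core, bound by NRF2, was in 1 member, G6pdx, at 57 to 49 bases before the start, and in 10.1% of all promoters. The CCAAT box was in 3 members (Pgd, Taldo1 and Idh1) and in 34.5% of all promoters, and in Pgd and Taldo1 a copy on the opposite strand, read as attgg above, ended 5 bases before the start. The E-box CACGTG (6.05% of promoters), the sterol regulatory element of the LDL receptor promoter (0.0629%) and the TATA box TATAAA (13.0%) had no match in the 9 windows. A match is a description of the letters and not of binding.

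The oxidative branch opens with glucose-6-phosphate dehydrogenase, the rate-limiting and first NADPH-forming enzyme of the pathway, encoded by the X-linked G6pdx. G6pdx was at 103.6 and 106.1 FPKM in the HDACi 4b libraries, against 26.1 and 24.2 FPKM in the controls. Both treated libraries stood far above both controls and the groups did not overlap. Its mean was 4.16-fold higher in HDACi 4b (104.8 ± 1.77 against 25.2 ± 1.32 FPKM, SD, n = 2 each), a log2 difference of 2.02 ± 0.068 (SE, limma adjusted p = 7.45e-05). Only 217 tested genes (1.80%) had a more positive difference. These values rest on 5172 and 5211 reads in HDACi 4b and 1322 and 1319 in controls. A stretch of 418 exonic bases is shared with Ikbkg on the opposite strand, and since the sources do not state that strand was used in counting, reads there cannot be told apart. Ikbkg itself was lower, at 7.14 and 7.23 FPKM in HDACi 4b and 13.1 and 12.2 FPKM in controls.

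Pgd, 6-phosphogluconate dehydrogenase, which forms the second NADPH and ribulose 5-phosphate, had the largest difference of the 9. It reached 160.6 and 159.4 FPKM in the HDACi 4b libraries, against 34.5 and 31.2 FPKM in controls. The treated values lay within 1% of each other, at 0.992 for library 2 over library 1, and far above both controls. The mean was 4.87-fold higher (160.0 ± 0.866 against 32.8 ± 2.33 FPKM, SD, n = 2 each), with a log2 difference of 2.25 ± 0.073 (SE, limma adjusted p = 7.05e-05). A larger difference was found for 157 tested genes (1.30%).

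Between these dehydrogenases stands Pgls, 6-phosphogluconolactonase, which opens the lactone ring and makes no NADPH. Pgls was at 32.9 and 32.4 FPKM in HDACi 4b and at 35.5 and 34.1 FPKM in controls. The treated libraries were both slightly below the controls, without overlap. The log2 difference was -0.09 ± 0.062 (SE), with a 95% interval of -0.25 to 0.07 and a limma adjusted p of 0.259, and its sign turned to 0.059 under median-ratio scaling. Pgls shares 776 exonic bases on the same strand with Fam129c, which was under 1 FPKM in all 4 libraries.

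The steps of the oxidative branch therefore stood in other proportions in the treated cells. The ratio of Pgls to G6pdx was 0.318 and 0.305 in HDACi 4b, against 1.36 and 1.41 in controls. Pgls was thus the less abundant of the pair per length in both treated libraries and the more abundant in both controls. The dehydrogenases kept closer proportions, G6pdx over Pgd being 0.645 and 0.665 in HDACi 4b and 0.757 and 0.777 in controls. Neither ratio overlapped between the groups (exact permutation p = 0.333 each, the smallest possible).

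In the non-oxidative branch the transferases and the pentose-converting enzymes moved apart. Tkt, transketolase, moves two-carbon units between sugar phosphates with thiamine diphosphate as cofactor. It was at 168.4 and 153.7 FPKM in HDACi 4b and at 60.0 and 55.2 FPKM in controls, with no overlap. The mean was 2.80-fold higher (161.1 ± 10.4 against 57.6 ± 3.34 FPKM, SD, n = 2 each) and the log2 difference 1.47 ± 0.080 (SE, limma adjusted p = 0.000198). Taldo1, transaldolase, moves three-carbon units and joins transketolase in returning carbon to glycolysis. It was at 252.5 and 248.3 FPKM in HDACi 4b, against 107.2 and 89.3 FPKM in controls. Every treated value was above every control value, and the mean was 2.55-fold higher (log2 difference 1.35 ± 0.10, SE, limma adjusted p = 0.000426). Control 1 exceeded control 2 here, with a ratio of library 2 over library 1 of 0.833 (95% counting interval 0.795 to 0.872).

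Rpia, ribose-5-phosphate isomerase, which makes the ribose precursor of nucleotides, was the only member called lower. It was at 2.09 and 2.37 FPKM in HDACi 4b, against 3.85 and 3.79 FPKM in controls, and the groups did not overlap. The mean was 0.585 of the control mean and the log2 difference was -0.58 ± 0.095 (SE, limma adjusted p = 0.00463, 0.00113 to 0.0414 over the alternatives). Rpia was the least abundant of the 9 in both groups, with 182 and 203 reads in HDACi 4b and 339 and 359 in controls. A more negative difference was found for 19.3% of tested genes.

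Rpe, ribulose-5-phosphate 3-epimerase, which makes the xylulose 5-phosphate used by transketolase, was at 10.3 and 10.9 FPKM in HDACi 4b and at 10.3 and 10.9 FPKM in controls. The groups overlapped fully. The difference was 0.0013 ± 0.072 on the log2 scale (SE, limma adjusted p = 0.989), with a 95% interval of -0.18 to 0.18. Under median-ratio scaling it was 0.142 (limma adjusted p = 0.138). Rpe shares 558 exonic bases with Kansl1l on the opposite strand, which was lower at 1.45 and 1.19 FPKM in HDACi 4b against 4.72 and 4.45 FPKM in controls.

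**Figure D2:**
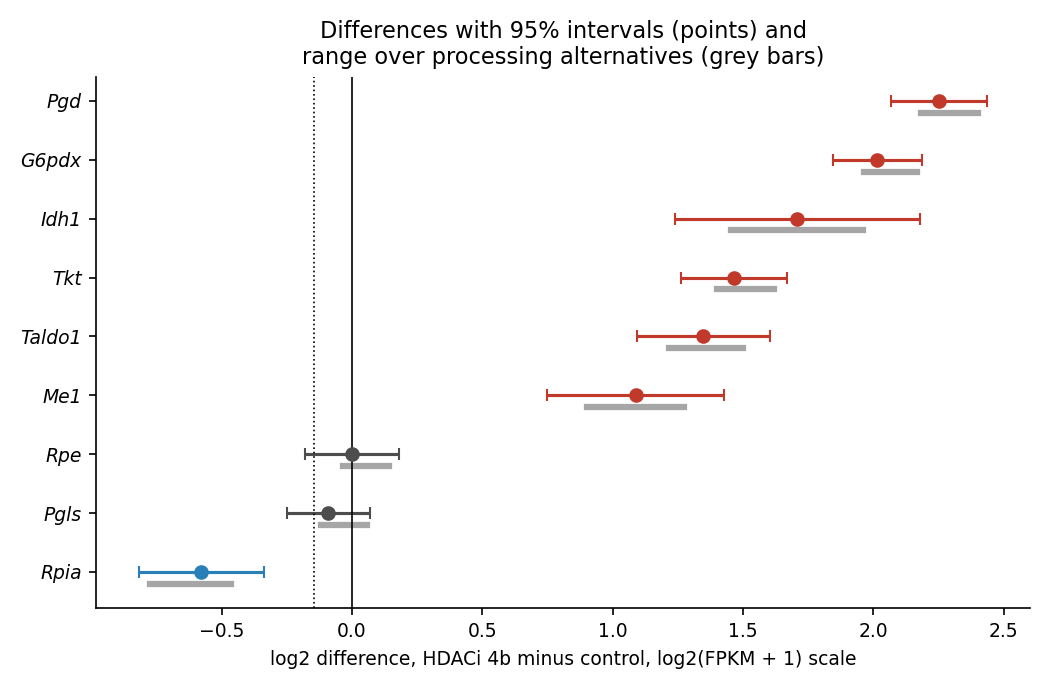
Log2 difference (HDACi 4b minus control, log2(FPKM + 1) scale) of each enzyme with its 95% interval, red for called higher, blue for called lower and dark grey for not called; the grey bar under each is the range over 10 processing alternatives and the dotted line the median of all tested genes (-0.15). The intervals of 6 enzymes lie above 0 and that of Rpia below it, and only the grey bars of Pgls and Rpe reach both sides of 0.

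Summed over its 3 genes, the oxidative branch was at 297.1 and 297.8 FPKM in HDACi 4b and at 96.2 and 89.5 FPKM in controls, 3.20-fold higher. The non-oxidative branch, over 4 genes, was at 433.4 and 415.2 FPKM in HDACi 4b and at 181.3 and 159.1 FPKM in controls, 2.49-fold higher. Both sums stood apart between the groups (exact permutation p = 0.333, the smallest possible). The ratio of the oxidative to the non-oxidative sum was 0.686 and 0.717 in HDACi 4b, against 0.530 and 0.563 in controls, so the non-oxidative branch held more transcript per length in all 4 libraries and its ratio to the oxidative branch was nearer to even in the treated ones.

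Within the 7 pathway genes, Pgd took 22.0% and 22.4% of the summed FPKM in HDACi 4b and 12.4% and 12.5% in controls. Pgls took 4.51% and 4.54% in HDACi 4b, against 12.8% and 13.7% in controls. The share of Tkt overlapped between the groups, at 23.1% and 21.6% in HDACi 4b and 21.6% and 22.2% in controls, although its level rose. Its change was thus close to that of the 7 genes summed. The pentose isomerase and epimerase together were 0.0295 and 0.0329 of transketolase plus transaldolase in HDACi 4b, against 0.0846 and 0.101 in controls. Within that pair, Rpe exceeded Rpia 4.93-fold and 4.57-fold in HDACi 4b and 2.68-fold and 2.86-fold in controls.

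**Figure D3:**
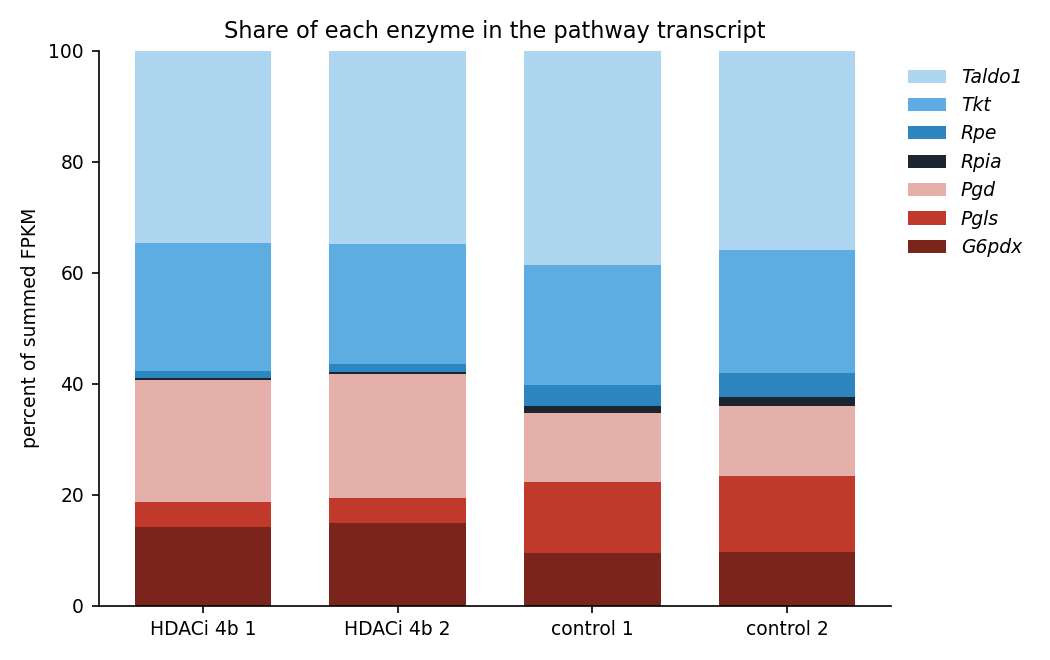
Percent of the summed FPKM of the 7 pathway genes taken by each gene in the 2 HDACi 4b libraries (left) and the 2 control libraries (right), oxidative branch in reds and non-oxidative branch in blues. The Pgd band is wider in HDACi 4b (22.0% and 22.4%) than in controls (12.4% and 12.5%), and the Pgls band is narrower (4.51% and 4.54% against 12.8% and 13.7%).

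Outside the pathway, the cytosolic NADPH sources were by far the most abundant of the 9. Idh1, the NADP-dependent isocitrate dehydrogenase of cytosol and peroxisomes, was at 1289 and 1303 FPKM in HDACi 4b, against 472.3 and 332.1 FPKM in controls. The groups did not overlap, and the mean was 3.22-fold higher (log2 difference 1.71 ± 0.18, SE, limma adjusted p = 0.00172). Me1, malic enzyme 1, which turns malate into pyruvate, was at 1148 and 1142 FPKM in HDACi 4b and at 473.2 and 611.9 FPKM in controls. It too stood apart, with a mean 2.11-fold higher (log2 difference 1.09 ± 0.13, SE, limma adjusted p = 0.00203). Idh1 held rank 16 of the 25239 listed genes by mean FPKM in HDACi 4b and rank 82 in controls, and Me1 rank 20 in HDACi 4b and rank 55 in controls.

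The 2 control libraries differed in Me1 and Idh1 beyond counting error, and in opposite directions. Control 2 over control 1 was 1.29 for Me1 (95% counting interval 1.27 to 1.31) and 0.703 for Idh1 (0.689 to 0.718). Between the treated libraries the same ratios were 0.995 for Me1 and 1.01 for Idh1. Me1 and Idh1 had the widest standard errors of the 9, and the log2 difference over the alternatives lay between 0.90 and 1.27 for Me1 and between 1.45 and 1.96 for Idh1. The sum of the pair was 2437 and 2446 FPKM in HDACi 4b, against 945.5 and 943.9 FPKM in controls (2.58-fold), so that the controls differed far less in the sum than in either gene. Me1 over Idh1 was 0.890 and 0.876 in HDACi 4b and 1.00 and 1.84 in controls. Idh1 was the more abundant of the pair in both treated libraries, whereas in controls the pair was level in library 1 and Me1 was ahead in library 2.

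By level, the order in HDACi 4b was Idh1, Me1, Taldo1, Tkt, Pgd, G6pdx, Pgls, Rpe and Rpia, in which Tkt and Pgd overlapped. In controls it was Me1, Idh1, Taldo1, Tkt, Pgls, Pgd, G6pdx, Rpe and Rpia, in which Pgls and Pgd overlapped and the lower Me1 value lay within 1 FPKM of the higher Idh1 value. G6pdx and Pgd were thus above Pgls by mean in HDACi 4b and below it in controls. By rank among all listed genes Pgd stood at 302 in HDACi 4b and 1723 in controls, and G6pdx at 495 in HDACi 4b and 2345 in controls. Rpia stood lower in the treated cells, at rank 9888 against 8657 in controls. The genes closest to Pgd in their pattern, by Euclidean distance of log2(FPKM + 1) centred on each gene's mean over the 4 libraries, were Iglon5 (0.0378), Ppp1r14a (0.0471) and Sema6b (0.0535).

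The other genes listed under NADPH and NADP supply, many of them mitochondrial, were mostly lower, though not all of them form NADPH. Of 13 listed genes of NADPH and NADP supply 10 were tested, and 1 was higher, 8 were lower and 1 was not called, with a median log2 difference of -0.50. One-carbon enzymes of both compartments were among the lower ones. Mthfd1, the cytosolic one, was at 11.7 and 11.8 FPKM in HDACi 4b and at 18.1 and 15.7 FPKM in controls (log2 difference -0.48, limma adjusted p = 0.00629), and its call was lost without HDACi 4b library 1. Mthfd2, a mitochondrial methylenetetrahydrofolate dehydrogenase, was at 11.8 and 10.4 FPKM in HDACi 4b and at 31.8 and 20.7 FPKM in controls (log2 difference -1.14, limma adjusted p = 0.0116), though its call was lost without HDACi 4b library 2 (0.00158 to 0.0606 over the alternatives). Mthfd1l, the mitochondrial formate-making enzyme, was at 1.61 and 1.67 FPKM in HDACi 4b, against 5.83 and 4.10 FPKM in controls (-1.16, limma adjusted p = 0.00254). Glud1, the mitochondrial glutamate dehydrogenase, was lower by a smaller step (-0.59, limma adjusted p = 0.00122).

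The mitochondrial counterparts of the members gave weaker calls. Idh2 was at 74.7 and 78.2 FPKM in HDACi 4b and at 88.7 and 100.7 FPKM in controls (log2 difference -0.30, limma adjusted p = 0.0262), and Me2, which mainly uses NAD, was at 94.0 and 114.2 FPKM in HDACi 4b and at 157.4 and 303.2 FPKM in controls (-1.07, limma adjusted p = 0.0491). Idh2 lost its call in 5 of 10 alternatives and Me2 in 5 of 9, no reads having been recovered for Me2 (adjusted p 0.0121 to 0.196 for Idh2 and 0.00224 to 0.181 for Me2), no filter, median-ratio scaling and leaving out either HDACi 4b library among them. The compartments therefore stood in other proportions, Idh1 over Idh2 being 17.3 and 16.7 in HDACi 4b and 5.32 and 3.30 in controls, and Me1 over Me2 12.2 and 10.01 in HDACi 4b and 3.01 and 2.02 in controls. Me3 was under the filter, at 0.223 and 0.334 FPKM in HDACi 4b and 0.936 and 1.21 FPKM in controls, and Nnt, the mitochondrial transhydrogenase, was under 0.2 FPKM in all 4 libraries.

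The gene of this list that rose was Nadk, the cytosolic NAD kinase, which makes NADP+ from NAD+. Nadk was at 137.9 and 110.6 FPKM in HDACi 4b and at 66.4 and 55.5 FPKM in controls (log2 difference 1.01 ± 0.14, SE, limma adjusted p = 0.00342). Its mitochondrial counterpart Nadk2 was lower, at 6.67 and 7.16 FPKM in HDACi 4b against 10.2 and 9.37 FPKM in controls (-0.44, limma adjusted p = 0.00621), a call that was lost without HDACi 4b library 1 (0.00635 to 0.0525 over the alternatives).

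Among 13 further genes of the pentose phosphate pathway and its outlets, 10 were tested, of which 4 were higher, 3 lower and 3 not called, with a median of 0.21. H6pd, the dehydrogenase and lactonase of the endoplasmic reticulum, was at 26.1 and 25.6 FPKM in HDACi 4b, against 10.4 and 10.1 FPKM in controls (log2 difference 1.26, limma adjusted p = 0.000176). Pgm2, a phosphoglucomutase whose symbol has changed places with Pgm1 between mouse annotations, and Rbks, ribokinase, also rose, by 1.41 and 1.08 on the log2 scale (limma adjusted p = 0.000163 and 0.00113). The phosphoribosyl pyrophosphate synthetases, which take ribose 5-phosphate into nucleotide synthesis, parted. Prps1 was at 14.6 and 14.7 FPKM in HDACi 4b and at 10.6 and 11.3 FPKM in controls (0.39, limma adjusted p = 0.00572). Prps2 was at 14.5 and 14.6 FPKM in HDACi 4b and at 27.2 and 20.1 FPKM in controls (-0.65, limma adjusted p = 0.0151, lost without either HDACi 4b library, 0.00216 to 0.0909 over the alternatives). Prpsap2, a subunit associated with these synthetases, fell too (-0.51, limma adjusted p = 0.00198). Tktl1, a transketolase-like gene, was under 0.2 FPKM in all 4 libraries, and the retrogene G6pd2 was not analysed here.

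Genes that bring glucose to glucose 6-phosphate, the substrate of G6pdx, or compete for it were mostly higher, with 10 of 12 tested called higher, 1 lower and 1 not called (median 0.86). Hk2, the inducible hexokinase, was at 30.6 and 30.3 FPKM in HDACi 4b and at 6.80 and 5.82 FPKM in controls, 4.83-fold higher (log2 difference 2.11, limma adjusted p = 0.000114). Hk1 rose by 0.98, the glucose transporter Slc2a3 by 1.47 and Pfkp, a phosphofructokinase of the competing glycolytic route, by 1.23 on the log2 scale (limma adjusted p = 0.000571, 0.000471 and 0.000298). Slc2a3 was scarce, at 3.02 and 3.18 FPKM in HDACi 4b and at 0.420 and 0.555 FPKM in controls. Its mean FPKM was 6.37-fold higher, a change that the log2(FPKM + 1) scale understates at this level.

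In the list of NADPH-using enzymes 16 of 21 tested genes were higher and 5 not called (median 1.00). The list was drawn broadly and also holds Nsdhl (higher, log2 difference 0.84), not itself a consumer of NADPH. Nqo1, a quinone reductase that takes NADH or NADPH, was at 42.1 and 38.9 FPKM in HDACi 4b, against 1.10 and 0.948 FPKM in controls, 39.6-fold higher. Blvrb, biliverdin reductase B, was at 42.8 and 44.6 FPKM in HDACi 4b and at 3.19 and 3.26 FPKM in controls, 13.6-fold higher. Both had a limma adjusted p of 4.57e-05, below that of every member. Dhcr7, which makes cholesterol with NADPH in its last step, rose by 2.98 and Txnrd1, thioredoxin reductase, by 1.77 on the log2 scale (limma adjusted p = 0.000162 and 0.000152).

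The transcription factor NRF2, encoded by Nfe2l2, is known to drive G6pdx, Pgd, Tkt, Taldo1 and Me1 in mouse cells. Whether NRF2 had a part in the differences seen here was not tested. The NRF2 pathway list of 14 genes had 13 higher and 1 lower (median 1.86). The list shares Nqo1, Txnrd1 and Gsr with the NADPH-using list. Nfe2l2 itself was at 87.7 and 81.3 FPKM in HDACi 4b, against 41.6 and 44.9 FPKM in controls (log2 difference 0.95, limma adjusted p = 0.000501). Keap1, its inhibitor, was the one lower, at 7.90 and 8.80 FPKM in HDACi 4b and 9.90 and 10.3 FPKM in controls (-0.25, limma adjusted p = 0.0433), and its call was lost in 7 of the 10 alternatives (0.0290 to 0.266). Hmox1, haem oxygenase 1, was 5.25-fold higher, and the ferritin chains Fth1 and Ftl1 were 6.77-fold and 3.89-fold higher (limma adjusted p = 7.05e-05, 5.42e-05 and 9.67e-05). Fth1, at 5786 and 5757 FPKM in HDACi 4b and 877.2 and 827.9 FPKM in controls, was above Idh1 in all 4 libraries.

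The sterol factors SREBP1 and SREBP2 are known regulators of genes that consume NADPH, and SREBP1 also of Me1. The part of these factors in the differences seen here was not tested. Of their 13 listed genes 11 were higher and 2 not called (median 0.62), and genes shared with the NADPH-using list were counted in both. Srebf2 was at 60.1 and 54.5 FPKM in HDACi 4b and at 37.6 and 36.1 FPKM in controls (log2 difference 0.62, limma adjusted p = 0.00164). Srebf1 was at 27.4 and 22.3 FPKM in HDACi 4b and at 21.4 and 20.5 FPKM in controls, without overlap. Srebf1 was not called (0.23, limma adjusted p = 0.117), though it was called higher under median-ratio scaling. Fasn, fatty acid synthase, was also not called (0.14, limma adjusted p = 0.398). Its values overlapped, at 20.2 and 16.6 FPKM in HDACi 4b and 18.1 and 15.2 FPKM in controls. Hmgcs1, an early enzyme of cholesterol synthesis, and Scd1, a fatty acid desaturase, were 9.06-fold and 9.39-fold higher, and Acly, which makes cytosolic acetyl-CoA, was 1.46-fold higher (limma adjusted p = 0.000196, 0.00101 and 0.00159).

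**Figure D4:**
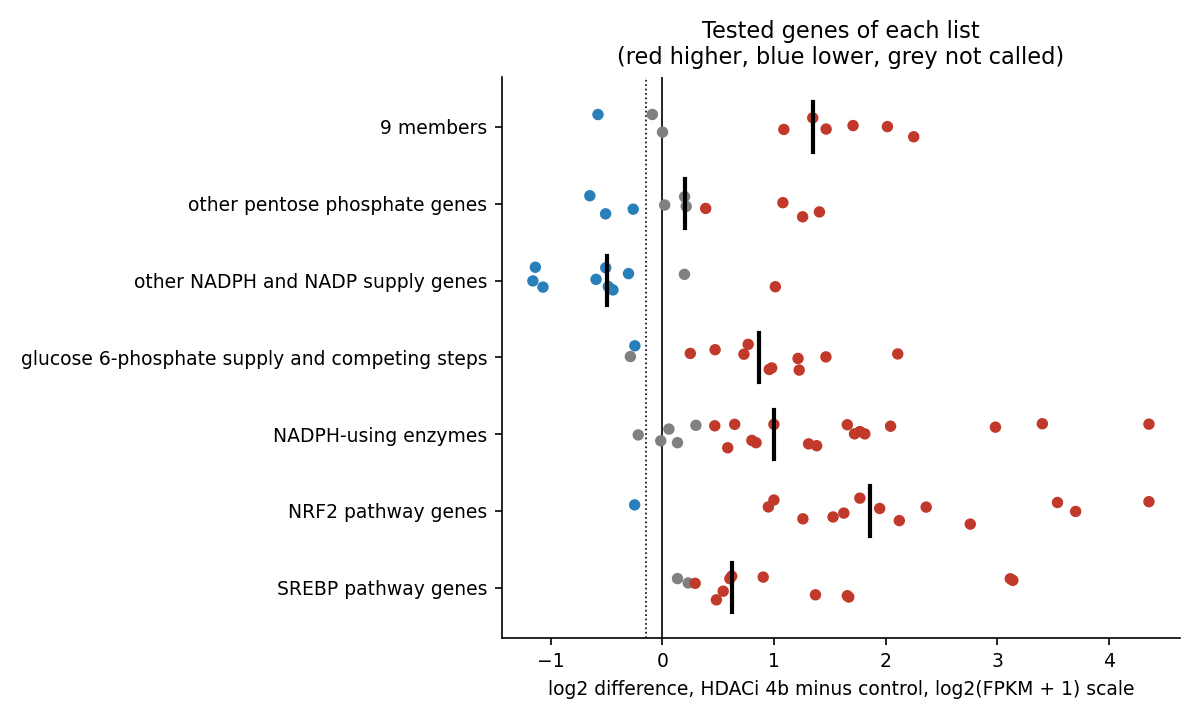
Log2 differences (HDACi 4b minus control, log2(FPKM + 1) scale) of the tested genes of the 9 members and 6 further lists, 1 point per gene with random vertical spread, red for called higher, blue for lower and grey for not called; black bars are medians and the dotted line is the median of all tested genes. The other NADPH and NADP supply genes have their median at -0.50, while the NRF2 pathway genes have theirs at 1.86.

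Totals behind the columns were 15951875 to 17665107 reads, and libraries of a group correlated at 0.989 and 0.993, against 0.883 to 0.896 between groups (across genes on the log2 scale). Cell type markers moved with the treatment. Of 8 tested granulosa markers 2 were higher (Fshr and Nr5a2) and 4 lower (Foxl2, Inha, Inhba and Esr2). All 9 listed summed to 649.9 and 794.8 FPKM in HDACi 4b against 1583 and 1575 FPKM in controls. Most of that sum was Inha, at 438.0 and 582.7 FPKM in HDACi 4b against 1219 and 1260 FPKM in controls. Cyp19a1 was under 1 FPKM throughout. All 4 tested stromal and contractile markers of 8 listed were lower (summed 36.2 and 63.0 FPKM in HDACi 4b against 195.6 and 313.3 FPKM in controls), but Col1a1, Col1a2 and Myh11 each lost the call in some alternatives, and Acta2 in none that gave it a value. Of 5 immune markers only Cd68 was tested, and it was higher at 37.6 and 27.1 FPKM in HDACi 4b against 6.73 and 10.8 FPKM in controls. The others were scarce and did not share this direction, Adgre1 being at 0.342 and 0.328 FPKM in HDACi 4b against 1.59 and 1.69 FPKM in controls, Csf1r at 0.215 and 0.218 FPKM in HDACi 4b against 0.735 and 1.09 FPKM in controls, and Ptprc under 0.1 FPKM throughout. Theca, endothelial and oocyte lists summed to under 7 FPKM in every library, with Cyp17a1 at or near 0. The part of these shifts in the results for the 9 enzymes was not tested, and in bulk RNA fewer cells of a type cannot be told apart from less RNA per cell.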

How the data were processed

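Total RNA of mouse GCs was sequenced from TruSeq libraries. Bowtie 0.12.2 and build mm8 stand in the submitters' processing notes, whereas counter, annotation and strand setting were not given in the sources used here. FPKM values, as deposited, were computed by the authors, 1 column per library. Multiplied by GENCODE M21 union exon length and library total, they gave whole reads (within 0.001 reads) in all libraries for 21610 of 23895 matched genes (90.4%), of 25239 listed. GENCODE M21 is an annotation of GRCm38, so the lengths behind the values do not match the mm8 of the notes. Depth was similar in all 4 libraries, and counting intervals (95%, exact binomial) cover counting error only.

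Groups and replicate numbers came from the sample titles. Genes that averaged 1 FPKM or more were tested on log2(FPKM + 1), with a pseudocount of 1, in limma 3.58.1 (R 4.3.3) with an intensity trend and robust empirical Bayes, on the 2 HDACi 4b and 2 control libraries, and p-values were adjusted over all 12054 genes. This scale understates changes of scarce genes. The procedure was tested on simulated data with few changed genes, up and down equally, a setting unlike these libraries. No call rests on that test. Alternatives were a pseudocount of 0.1, no filter, median-ratio scaling, plain empirical Bayes, a replicate block, limma-voom on recovered reads of genes with at least 10 reads in 2 libraries, and leaving out each library. Named genes outside the 9 are the up to 4 with the smallest p in each list plus genes listed by name as paired with the members (among them Mthfd2 and Hk2). Mthfd1, Nsdhl, Fasn, exon-overlapping neighbours, markers and genes under the filter were added after their values were seen. The members and lists were chosen with earlier results of these data known. Promoters are from RefSeq (GRCm38.p6), matched by symbol.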

Additional observations from a re-analysis of the deposited data

How the results depend on the processing

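The calls of the 9 enzymes (6 higher, 1 lower, 2 not called) held in all 10 alternatives. Under median-ratio scaling Pgls turned to 0.059 (limma adjusted p = 0.457) and Rpe was at 0.142 (limma adjusted p = 0.138). Rpe lay between -0.0334 and 0.0361 when each library was left out in turn. Neither gene was called in any alternative. Calls over all genes numbered 7297 (37.0% higher), against 6822 (50.3% higher) under median-ratio scaling, which moved the median of all tested genes to -0.01, against -0.15 without it, and 4571 without HDACi 4b replicate 1. Leaving out a library leaves 1 in its group, assumed to vary like the others. Same-numbered libraries deviated together only weakly (r = 0.0877 across 12054 genes), so the numbers were not taken as pairs; with the replicate block 7 members and 7315 genes were called. With 2 libraries per group, small differences such as that of Pgls cannot be resolved.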
